A study of Oryza sativa with 4 samples.

Results

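The anther cell fate and tapetum regulators of rice were followed here as 8 genes: MSP1, TDL1A, MIL1, UDT1, TDR, TIP2, EAT1 and GAMYB. They were picked by locus identifier, and all 8 were present among the 45027 loci of the count table. Transcript levels came from RNA-seq of panicles of the japonica cultivar Dongjin. The mutant group carried the allele emf2b-1 of EMF2B, which encodes a subunit of Polycomb repressive complex 2, and the other group was wild type (WT). Each group had 2 libraries, which the table names by barcode. The mutant libraries are GAGT and TTAG, and those from wild type are ACCC and CGTA. Panicles of both groups were 0.3 to 1.5 cm long, at inflorescence stage 7, from a greenhouse with 30 °C days and 25 °C nights. The series asks how loss of EMF2B function changes the panicle transcriptome. Nothing in the labels says how many plants went into a library or whether libraries came from separate plants, so the p-values measure only the spread between libraries, which may be technical.

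In a young anther, a few cells beneath the epidermis become sporogenous cells, and the surrounding cells divide into wall layers. The innermost layer, the tapetum, feeds the developing pollen and is later dismantled by programmed cell death. Cell fate is set by a secreted peptide and its receptor kinase, which hold down the number of sporogenous cells, while a cascade of basic helix-loop-helix (bHLH) transcription factors and a gibberellin-regulated MYB factor drives tapetum differentiation and death. Polycomb repressive complex 2 places the mark H3K27me3, which keeps developmental genes silent outside their proper place and time.

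Read totals were 12932305 for emf2b GAGT and 16926873 for emf2b TTAG, against 25382519 for WT ACCC and 32087683 for WT CGTA. A floor of detection of 3 reads thus stood for 0.232 and 0.177 counts-per-million (CPM) in emf2b, against 0.118 and 0.0935 CPM in WT. Although sequenced less deeply, the emf2b libraries had reads at more loci, 35614 and 41111, against 31678 and 30611 in WT. EMF2B itself (the locus taken for it is LOC_Os09g13630) was lower in the mutant, at 9.90 and 11.9 CPM in emf2b, against 37.1 and 38.8 CPM in WT, with an edgeR adjusted p of 0.00661 (log2 fold change -1.83 ± 0.21 SE; the p was 0.0843 without WT CGTA). Libraries of 1 genotype differed far beyond counting noise (chi-square per degree of freedom 39.7 in emf2b and 53.8 in WT), and each was counted as 1 replicate.

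None of the regulators passed the test for a difference between emf2b and WT. Of the 8 genes, 5 had enough reads to be tested (MSP1, UDT1, TIP2, EAT1 and GAMYB), and 0 rose and 0 fell at an adjusted p under 0.05 by the edgeR quasi-likelihood test, beside 15.7% of the 22615 loci tested (13.5% higher and 2.21% lower in emf2b). At an unadjusted p under 0.05 there were 3 (MSP1, TIP2 and EAT1), beside 28.6% of all loci tested. DESeq2 called EAT1 higher and MSP1 lower, beside 13.3% of the loci to which it gave an adjusted p. The values of the emf2b and WT libraries did not overlap at 6 of the 8 genes: TDL1A, MIL1, TIP2 and EAT1 were above WT in both emf2b libraries, and MSP1 and UDT1 below. Of all loci in the table, 34.9% lay above WT in this way and 13.7% below. Because these are whole panicles, fewer cells of a type and less RNA per cell cannot be told apart.

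**Figure D1:**
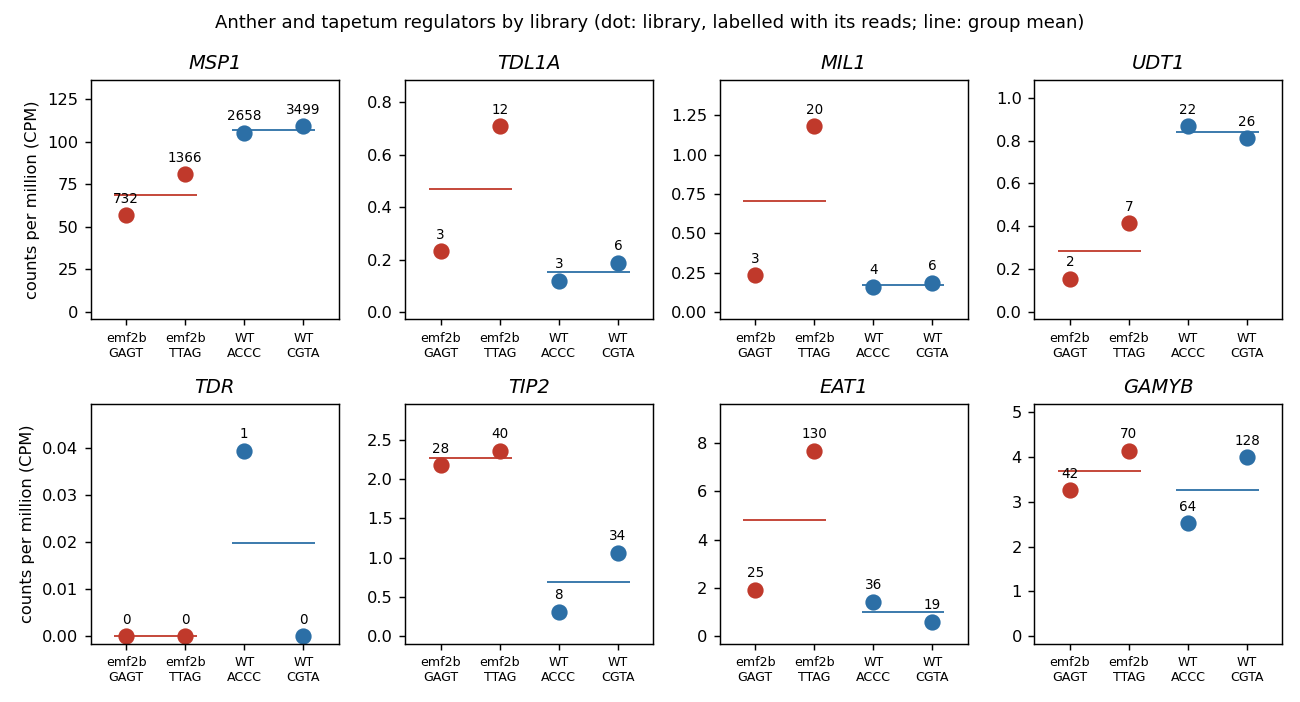
Level of each regulator in each library, in CPM on a linear axis of its own per gene; dots are libraries labelled with their read counts, and lines are group means. MSP1 and UDT1 are lower in both emf2b libraries than in both WT libraries, TDL1A, MIL1, TIP2 and EAT1 are higher in both, GAMYB overlaps, and TDR has 1 read in all.

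MSP1 (LOC_Os01g68870, chromosome 1) encodes a leucine-rich repeat receptor-like kinase that limits how many cells become sporogenous and is needed for the anther wall layers. Its reads numbered 732 in emf2b GAGT and 1366 in emf2b TTAG, against 2658 in WT ACCC and 3499 in WT CGTA. Scaled to library totals this was 56.6 and 80.7 CPM in emf2b, against 105 and 109 CPM in WT. The WT libraries were close together and both emf2b libraries were below them, GAGT further than TTAG. Means ± SD of the 2 libraries were 68.7 ± 17.0 CPM for emf2b and 107 ± 3.06 CPM for WT. The fitted level in emf2b was 0.626-fold that in WT (log2 fold change -0.68 ± 0.20 SE), with an edgeR adjusted p of 0.0665. Without emf2b TTAG, MSP1 passed the test (log2 fold change -0.92 ± 0.22 SE, edgeR adjusted p = 0.0406), where 10.4% of all loci tested were called. Over all alternatives its adjusted p ran from 0.0349 to 0.340.

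Most reads assigned to the 8 genes belonged to MSP1. Its share was 87.7% and 83.0% in emf2b, against 95.1% and 94.1% in WT. These shares are of reads and are not corrected for transcript length. The other members together had 7.96 and 16.5 CPM in emf2b, against 5.44 and 6.83 CPM in WT. Their sum was thus higher in both emf2b libraries while MSP1 was lower. This order rested on EAT1, at 1.93 and 7.68 CPM in emf2b, against 1.42 and 0.592 CPM in WT. With EAT1 taken out, the sums of the genotypes overlap. The members did not rise together, as UDT1 was lower in both emf2b libraries and GAMYB overlapped.

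TDL1A (LOC_Os12g28750, chromosome 12) encodes the small secreted protein that binds the extracellular part of MSP1. It had 3 reads in emf2b GAGT and 12 in emf2b TTAG, against 3 in WT ACCC and 6 in WT CGTA. At 0.232 and 0.709 CPM in emf2b, against 0.118 and 0.187 CPM in WT, the ligand was highest in TTAG and had at most 6 reads in each of the other 3 libraries. MIL1 (LOC_Os07g05630, chromosome 7), a CC-type glutaredoxin needed for microsporocytes to form and enter meiosis, had 3 and 20 reads in emf2b, against 4 and 6 reads in WT. That was 0.232 and 1.18 CPM in emf2b, against 0.158 and 0.187 CPM in WT, again with TTAG as the high library.

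Neither TDL1A nor MIL1 had enough reads to enter the test. The depth-adjusted read ratio of emf2b over WT was 3.21 for TDL1A (exact 95% interval 1.32 to 8.31) and 4.43 for MIL1 (2.03 to 10.4). These intervals cover counting error only, not the spread between libraries, and the TTAG library supplied 12 of the 15 emf2b reads of TDL1A and 20 of the 23 of MIL1. Such a rise was common at weakly counted loci: of the 13602 loci with 1 to 10 WT reads in all, 47.4% were above WT in both emf2b libraries. Of the same loci, 23.9% had at least as many emf2b reads as TDL1A and 15% at least as many as MIL1. A fit with no low-count filter gave log2 fold changes of 1.47 ± 0.91 for TDL1A and 1.92 ± 0.90 for MIL1 (SE; edgeR adjusted p = 0.316 and 0.209). Other settings that gave them a value had adjusted p from 0.180 to 0.704 for TDL1A and from 0.0765 to 0.594 for MIL1.

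UDT1 (LOC_Os07g36460, chromosome 7), a bHLH factor required early for tapetum differentiation, was the 1 tested bHLH gene with a lower level in both emf2b libraries. It had 2 and 7 reads in emf2b, against 22 and 26 reads in WT, or 0.155 and 0.414 CPM against 0.867 and 0.810 CPM. Both emf2b values were below both WT values, and GAGT was under the floor of 3 reads. Means ± SD of the 2 libraries were 0.284 ± 0.183 CPM for emf2b and 0.839 ± 0.0399 CPM for WT. The log2 fold change of -1.50 ± 0.69 (SE) did not pass (edgeR adjusted p = 0.204), and the read ratio was 0.361 with an exact interval of 0.156 to 0.744.

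TDR (LOC_Os02g02820, chromosome 2), the bHLH factor known for timely tapetum degeneration, was not detected in the mutant and had 1 read in all. Both emf2b libraries had 0 reads, against 1 read in WT ACCC and 0 in WT CGTA. All 4 libraries were under the floor, so no fold change is given; a count of 0 allows up to 0.232 CPM in GAGT and 0.177 CPM in TTAG.

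TIP2 (LOC_Os01g18870, chromosome 1; also bHLH142), which acts with TDR and upstream of EAT1, had 28 and 40 reads in emf2b, against 8 and 34 reads in WT. The levels were 2.17 and 2.36 CPM in emf2b, against 0.315 and 1.06 CPM in WT. The emf2b libraries were alike, while WT CGTA exceeded WT ACCC by a read ratio of 3.36 (exact 95% interval 1.53 to 8.41). Means ± SD of the 2 libraries were 2.26 ± 0.140 CPM for emf2b and 0.687 ± 0.526 CPM for WT. The fitted level in emf2b was 3.09-fold that in WT (log2 fold change 1.63 ± 0.59 SE), which did not pass (edgeR adjusted p = 0.112). The value was 2.76 without WT CGTA and 1.05 without WT ACCC, and neither fit passed.

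EAT1 (LOC_Os04g51070, chromosome 4; also bHLH141) activates aspartic protease genes that promote death of the tapetum. It had 25 reads in emf2b GAGT and 130 in emf2b TTAG, against 36 in WT ACCC and 19 in WT CGTA. The corresponding levels were 1.93 and 7.68 CPM in emf2b, against 1.42 and 0.592 CPM in WT. TTAG was far above every other library, and GAGT was only a little above WT ACCC. Means ± SD of the 2 libraries were 4.81 ± 4.06 CPM for emf2b and 1.01 ± 0.584 CPM for WT. The fitted level in emf2b was 4.88-fold that in WT (log2 fold change 2.29 ± 0.71 SE), with an edgeR adjusted p of 0.0717. Without emf2b GAGT, EAT1 passed (2.86 ± 0.53, edgeR adjusted p = 0.0156), where 15.7% of all loci tested were called. Without emf2b TTAG, the log2 fold change was 0.97 ± 0.70 (SE; edgeR adjusted p = 0.447). These are the lowest and highest adjusted p of EAT1 over all alternatives.

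GAMYB (LOC_Os01g59660, chromosome 1), the gibberellin-regulated MYB factor of tapetum death and pollen wall formation, overlapped between the genotypes. It had 42 and 70 reads in emf2b, against 64 and 128 reads in WT, or 3.25 and 4.14 CPM against 2.52 and 3.99 CPM. The log2 fold change was 0.15 ± 0.39 (SE; edgeR adjusted p = 0.851), and its sign turned to -0.01 without emf2b TTAG and -0.15 without WT ACCC. The data do not give a direction for GAMYB.

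**Figure D2:**
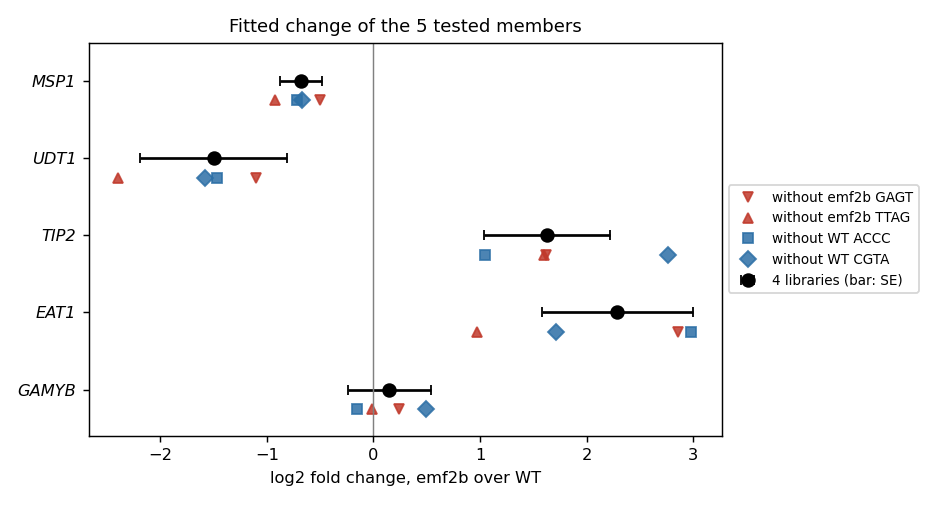
Log2 fold change of emf2b over WT for the 5 regulators tested, from all 4 libraries (black, bar is the SE) and with each library left out in turn (coloured). MSP1 and UDT1 are below 0 and TIP2 and EAT1 above 0 in every fit shown, EAT1 ranges from 0.97 to 2.98, and GAMYB lies on both sides of 0.

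The libraries of 1 genotype differed from each other at several of these genes. TTAG was above GAGT at 7 of the 8 genes, all but TDR, beside 62.0% of all loci in the table. The read ratio of TTAG over GAGT was 3.97 for EAT1 (exact 95% interval 2.57 to 6.36), 5.09 for MIL1 (1.51 to 26.8) and 1.43 for MSP1 (1.30 to 1.56); the other 4 intervals included 1. A ratio as large as that of EAT1 or larger was found at 1.84% of the loci tested. In WT the intervals of TIP2, EAT1 and GAMYB excluded 1. EAT1 ran the other way there from TIP2 and GAMYB: the ratio of CGTA over ACCC was 0.417 for EAT1 (0.226 to 0.747) and 1.58 for GAMYB (1.16 to 2.17), beside the 3.36 of TIP2. These intervals compare libraries, not conditions.

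**Figure D3:**
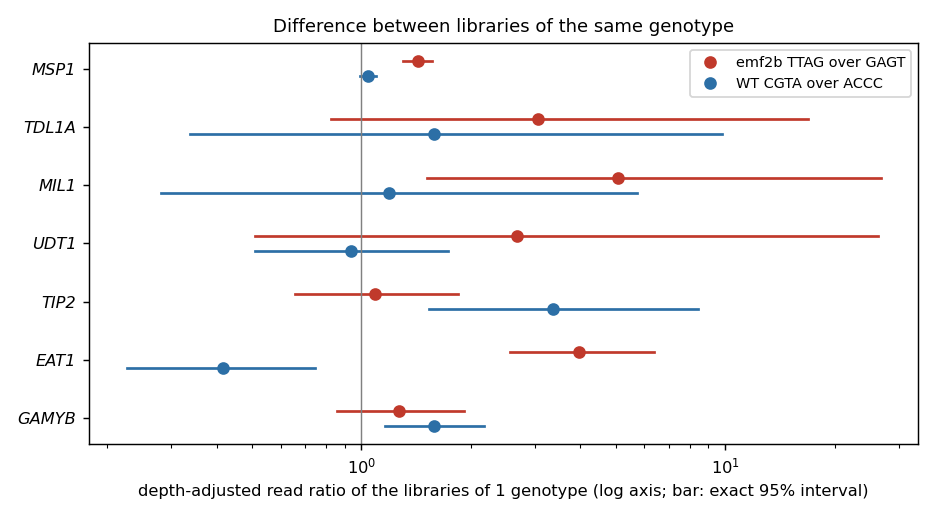
Depth-adjusted read ratio between the libraries of 1 genotype, on a log axis, with exact 95% intervals for counting error: TTAG over GAGT for emf2b (red) and CGTA over ACCC for WT (blue). EAT1 differs within both genotypes, TIP2 and GAMYB within WT, and MSP1 and MIL1 within emf2b; TDR had too few reads to be drawn.

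Ratios between members of the set within a library do not depend on scaling, nor on depth apart from the 0.5 reads added. The genotypes did not overlap at 15 of the 21 pairs of members other than TDR. These pairs reuse the same genes and are not separate results. No share over pairs of other loci was computed to set beside this count. UDT1 stood lower in emf2b relative to the later bHLH genes EAT1 and TIP2. Its emf2b counts were only 2 and 7 reads, with GAGT under the floor of 3 reads. The log2 ratio of UDT1 to EAT1 reads was -3.35 and -4.12 in emf2b, against -0.70 and 0.44 in WT, a difference of -3.61. The log2 ratio of UDT1 to TIP2 was -3.51 and -2.43 in emf2b, against 1.40 and -0.38 in WT, a difference of -3.48. TIP2 and EAT1 showed no such shift between themselves: their log2 ratio was 0.16 and -1.69 in emf2b, against -2.10 and 0.82 in WT, and the difference of -0.12 was smaller than the spread within either genotype. The log2 ratio of MSP1 to GAMYB was 4.11 and 4.28 in emf2b, against 5.37 and 4.77 in WT, a difference of -0.87. With 2 libraries against 2, a two-sided exact permutation test of such a ratio cannot go below p = 0.333, so these differences are descriptions.

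Levels of AP25 and CYP703A3, known targets of the late regulators, were low. AP37, also listed with the later tapetum genes, was not among the loci counted. AP25, an aspartic protease gene that EAT1 activates, was named after its values were seen; it had 1.01 and 2.48 CPM in emf2b, against 1.89 and 2.87 CPM in WT, and did not pass (-0.45 ± 0.51 on the log2 scale, edgeR adjusted p = 0.623). Its groups overlapped, and like EAT1 it was higher in TTAG than in GAGT, as were 62.0% of all loci. In WT, AP25 and EAT1 ran opposite ways. The read ratio of CGTA over ACCC was 1.52 for AP25 (exact interval 1.06 to 2.2), against 0.417 for EAT1 (0.226 to 0.747). CYP703A3, a cytochrome P450 gene for pollen wall precursors that GAMYB activates, likewise named after its values were seen, had 3 and 2 reads in emf2b, against 4 and 3 reads in WT.

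Other genes of the pathway gave 1 call by edgeR. Over all loci tested, 13.5% were called higher and 2.21% lower in emf2b. Of 5 other early anther genes in the table, 4 were tested, and LOC_Os12g38460 fell, at 1.08 and 3.37 CPM in emf2b, against 7.88 and 10.9 CPM in WT, with an edgeR adjusted p of 0.0263 (log2 fold change -2.06 ± 0.47 SE); this call was lost without WT ACCC, without WT CGTA and with the stricter filters, and the list's median log2 fold change was -0.32. SERK1, a somatic embryogenesis receptor kinase of the family whose Arabidopsis members act as co-receptors of the MSP1 ortholog, had 105 and 128 CPM in emf2b, against 126 and 142 CPM in WT, with an edgeR adjusted p of 0.440 (log2 fold change -0.24 ± 0.18 SE). Of 19 later tapetum and pollen wall genes in the table, 9 were tested, 0 rose and 0 fell, with a median log2 fold change of -0.11 beside 0.01 over all loci tested. DESeq2 called 1 gene of the list higher, beside 13.3% of the loci to which it gave an adjusted p, called in either direction. The 10 not tested had at most 17 reads in any library, and together 16 and 46 reads in emf2b, against 14 and 12 in WT. Of these, LOC_Os06g40550 had 5 and 17 reads in emf2b, against 1 and 1 in WT. Among loci with 1 to 10 WT reads in all, 47.4% were above WT in both emf2b libraries. LOC_Os09g31390 of that list had 1.93 and 2.13 CPM in emf2b, against 0.236 and 1.22 CPM in WT, with an edgeR adjusted p of 0.226 (log2 fold change 1.38 ± 0.66 SE), the same order of libraries as TIP2. LOC_Os10g33250, the locus of that list with the most reads, was above WT in both emf2b libraries. It had 194 and 478 CPM in emf2b, against 163 and 167 CPM in WT (0.98 ± 0.36, edgeR adjusted p = 0.121).

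Genes that mark the organs and cells in which these regulators act were lower in part. Of 6 stamen identity genes, all tested, 0 rose and 2 fell, beside 2.21% lower over all loci tested, with a median log2 fold change of -1.33. Their summed level was 35.3 and 44.8 CPM in emf2b, against 97.1 and 143 CPM in WT. Most of that sum in WT was SL1, and without it the sum was 17.4 and 21.3 CPM in emf2b, against 23.0 and 38.8 CPM in WT. SL1, whose zinc finger protein acts upstream of B-class genes, and MADS16, a B-class gene of stamens and lodicules, had log2 fold changes of -2.14 ± 0.23 and -2.40 ± 0.57 (SE; edgeR adjusted p = 0.00650 and 0.0302). The other 4 did not pass. MADS4, a B-class gene, was at 0.619 and 0.591 CPM in emf2b, against 1.30 and 3.55 CPM in WT, with an edgeR adjusted p of 0.0927 (-2.06 ± 0.69 SE on the log2 scale). MADS58, a C-class gene, was at 3.56 and 1.36 CPM in emf2b, against 0.355 and 1.31 CPM in WT (1.43 ± 0.71; edgeR adjusted p = 0.239). MADS2 and MADS3 had log2 fold changes of -0.44 ± 0.26 and -0.60 ± 0.56 (SE). Of 14 germ cell and meiosis genes, all tested, 0 rose and 5 fell, again beside 2.21% lower over all loci tested, with a median log2 fold change of -0.78 and a summed level of 157 and 181 CPM in emf2b, against 377 and 437 CPM in WT. MEL1, the Argonaute gene of germ cells, had the largest fall of that list (-2.71 ± 0.19 SE, edgeR adjusted p = 0.00298). The others that fell were ZEP1, of the synaptonemal complex (-2.50 ± 0.21), the chromosome axis genes PAIR2 (-1.11 ± 0.23) and PAIR3 (-1.38 ± 0.38), and LOC_Os11g04954 (-1.91 ± 0.47). The uncalled gene with the largest change was the recombinase gene DMC1A (-1.67 ± 0.58, edgeR adjusted p = 0.104). Without WT CGTA, 0 stamen identity genes and 1 germ cell and meiosis gene were still called lower; without WT ACCC the counts were 1 and 2. In the same fits, the loci called lower over the whole table numbered 4 and 28, against 499 with all libraries.

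No marker of the stamen or germ cell lists was at 0 in any library. None of the regulators passed the test, and the part of stamen and germ cell content in their values was not tested. Leaf photosynthesis markers gave 0 calls among 5 tested, beside 15.7% of all loci tested. Their summed level was 34.6 and 75.5 CPM in emf2b, against 35.2 and 25.7 CPM in WT. The sum was higher in TTAG than in GAGT, as were all regulators but TDR, beside 62.0% of all loci. The part of leaf content in those values was not tested. CAB1R, a chlorophyll a/b-binding protein gene, carried most of the TTAG sum, at 15.7 and 46.2 CPM in emf2b, against 22.2 and 7.76 CPM in WT; without it the sum was 18.9 and 29.2 CPM in emf2b, against 13 and 17.9 CPM in WT. CAB2R and LOC_Os08g44680 of that list were also higher in TTAG than in GAGT, at 13.1 against 4.48 CPM and 13.8 against 9.74 CPM. LOC_Os08g44680 was above WT (5.56 and 6.67 CPM) in both emf2b libraries but did not pass (0.91 ± 0.29, edgeR adjusted p = 0.0755). LOC_Os12g17600 and LOC_Os12g19470 were lower in TTAG than in GAGT, at 1.83 against 4.02 CPM and 0.532 against 0.619 CPM. The list's median log2 fold change was 0.59, beside 0.01 over all loci tested. Of 3 seed storage markers in the table, 2 were tested and 0 were called, and their summed level was 8.82 and 8.81 CPM in emf2b, against 7.37 and 8.53 CPM in WT.

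**Figure D4:**
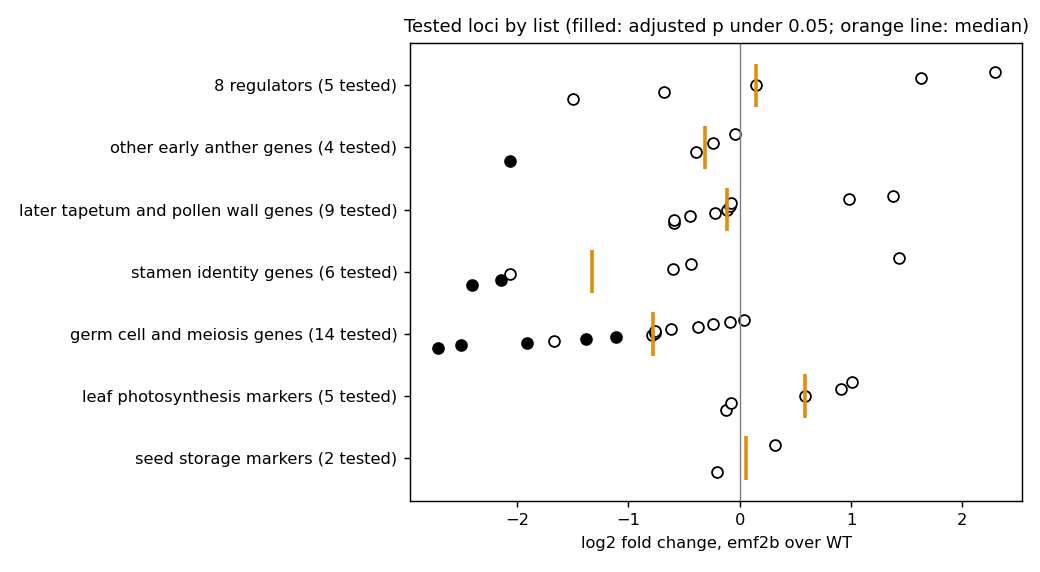
Log2 fold change of emf2b over WT for each tested locus of the regulators and of the 6 other lists; filled points passed at an adjusted p under 0.05, and orange lines are list medians. None of the 5 tested regulators is filled, and the filled points, all below 0, belong to the early anther (1), stamen identity (2) and germ cell and meiosis (5) lists.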

How the data were processed

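The authors deposited unnormalized counts of reads, 1 gene model for each locus. The submitters' processing notes list TopHat2 2.0.5 and DESeq 1.10.1. The sources used here do not give the counter, build, annotation or strand setting. Reads of overlapping, antisense or near-identical genes therefore cannot be told apart. Per the labels' protocols, 10 ng of RNA were amplified to cDNA and read for 40 cycles as single reads. The columns carry barcodes and no replicate number, so each was assigned to its genotype only. The extraction text names wild-type tissue for every sample; groups follow the titles and genotype labels.

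Loci passing filterByExpr (minimum count 10, total 15) were scaled by TMM and tested with the quasi-likelihood F test of edgeR 4.0.16 in R 4.3.3, two-sided, Benjamini-Hochberg over 22615 loci, threshold 0.05, 2 residual degrees of freedom; the code was tested on simulated data. The SE was obtained from the log2 fold change and the F statistic. CPM used library totals. Intervals of read ratios are exact (Clopper-Pearson, 95%). Within-library ratios had 0.5 reads added. DESeq2 1.42.0 was an alternative.

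Genes and lists were chosen with earlier results of these data known. The rule for named genes was the 8 regulators, the called loci of each list and its 2 uncalled loci with the largest change; uncalled loci with no name in RefSeq were mostly left out, as were single seed storage genes, and other genes were added beside them. Of the regulators' names, 7 of 8 (not MIL1), and of 55 other names 28, occurred in RefSeq (ASM3414082v1, another build) on the expected chromosome in matching order; other loci are given by identifier. The link of EMF2B to its locus rests on general knowledge.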

Additional observations from a re-analysis of the deposited data

How the results depend on the processing

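No paired analysis was possible because the columns carry barcodes and no replicate number. With a library left out, 1 residual degree of freedom remains and the lone library is assumed to vary like the others. Over the alternatives run, the log2 fold changes of MSP1 (-0.92 to -0.50), UDT1 (-7.17 to -1.10), TIP2 (1.05 to 2.76) and EAT1 (0.97 to 2.98) kept their sign. DESeq2 called MSP1 (-0.74) and EAT1 (2.15), so its counts among the regulators were 1 higher and 1 lower. With each library left out in turn, MSP1 ranged from -0.92 to -0.50, EAT1 from 0.97 to 2.98 and GAMYB from -0.15 to 0.49, and the regulators called ranged from 0 to 1 higher and from 0 to 1 lower. The -7.17 of UDT1 arose when emf2b counts were lowered by the 95th percentile of reads at the 9379 loci with no WT read (5 in GAGT, 11 in TTAG), which leaves UDT1 at 0 in emf2b. UDT1 was not tested under the stricter count filter, and UDT1, TIP2, EAT1 and GAMYB were not tested at a mean of 5 CPM. Fitting without a low-count filter moved the median of all loci by -0.13, and a mean of 5 CPM by 0.11; relative to the median, MSP1 was at -0.69 and -0.56. Calls over all loci (3057 higher, 499 lower) were 1371 and 216 with the stricter filter (minimum count 30, total 45), 183 and 27 at a mean of 5 CPM, and 1248 and 202 with lowered emf2b counts. With a library left out they ranged from 16 to 3673 higher and from 4 to 419 lower, the lowest without WT CGTA; without WT ACCC they were 161 and 28. The within-library log2 ratio of TIP2 to EAT1 differed by -0.12 between genotypes and ranged from -1.59 to 1.34 with a library left out, with a changed sign without emf2b TTAG (0.80) and without WT CGTA (1.34). The cause of these changes was not tested. TDR, TDL1A and MIL1 had too few reads for the count filter used; with no filter they were tested and not called (adjusted p = 0.618, 0.316 and 0.209).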
